A study of Homo sapiens with 4 samples.

Results

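DNMT1, DNMT3A, DNMT3B, UHRF1, UHRF2, TET1, TET2, TET3, TDG and HELLS, which write, keep or remove methyl groups on DNA, were followed in 4 RNA-seq libraries of DU145, an established human prostate cancer cell line. The genes were taken by symbol from a fixed list, and all 10 of 10 had a value in every library, out of 20474 genes with values in all 4. Each of the 10 also passed the filter on low values, as did 14942 genes in all. Cells had been transfected with siRNA at 75 nM for 48 h. PTBP1 siRNA was used in 2 libraries, each with a different siRNA against PTBP1 (called PTBP1 siRNA 1 and PTBP1 siRNA 2), DNMT3B-L siRNA in 1 library and control siRNA, the negative control, in 1 library. PTBP1 is an RNA-binding protein that represses exons during splicing. The labels name DNMT3B-L as a target without defining it. Nothing in the labels says that the libraries came from separate cultures, so the p-values measure only the spread between these libraries, and every comparison with control siRNA shares the same control library.

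DNA methylation in mammals is carried mostly by cytosines followed by guanine. DNMT3A and DNMT3B set new methyl groups, while DNMT1 copies the pattern onto the new strand after replication, brought there by UHRF1, which binds hemimethylated DNA. HELLS is a chromatin remodeler that opens nucleosomes for this machinery, the TET enzymes oxidize 5-methylcytosine, and TDG excises the oxidized bases so that repair can restore plain cytosine.

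Among the promoters searched, those of DNMT1, UHRF1 and HELLS, and of none of the other 7 genes, held words of the type bound by E2F factors, which drive genes of S phase. For DNMT3B the only window searched lies at the start of DNMT3B-201, and the starts of its other transcripts were not searched. RefSeq on GRCh38.p14 gave 21 promoters for the 10 genes, each of 300 bases from 250 before to 50 after the start of transcription. The E2F words were searched on both strands as TTTCCCGC, TTTGGCGC, TTTCGCGC and TTTGCCGC. They stood in 4 of the 21 promoters, 2 of them of UHRF1, and in 3.32% of 35116 promoters of the same length. The word CCAAT stood in 8 of the 21 and in 34.6% of all, and GGGCGG in 13 of the 21 and in 45.0% of all. The promoters of DNMT1 (chr19:10194904-10195203, minus strand), UHRF1 (the first of 3, chr19:4909251-4909550, plus strand) and HELLS (chr10:94545538-94545837, plus strand) are shown because they hold the E2F words, and that of TDG (chr12:103965622-103965921, plus strand) because TDG alone of the 10 stood at least 1.5-fold above control siRNA in all 3 targeted libraries. Each reads 5′ to 3′, and capitals mark the matches on either strand, runs of 8 for the E2F words and runs of 5 for CCAAT.
DNMT1: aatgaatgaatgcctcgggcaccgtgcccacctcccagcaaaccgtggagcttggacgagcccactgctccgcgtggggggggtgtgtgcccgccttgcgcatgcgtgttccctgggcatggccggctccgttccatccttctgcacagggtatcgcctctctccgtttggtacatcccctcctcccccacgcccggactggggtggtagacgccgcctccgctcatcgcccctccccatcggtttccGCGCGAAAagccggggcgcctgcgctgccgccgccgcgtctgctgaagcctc
UHRF1: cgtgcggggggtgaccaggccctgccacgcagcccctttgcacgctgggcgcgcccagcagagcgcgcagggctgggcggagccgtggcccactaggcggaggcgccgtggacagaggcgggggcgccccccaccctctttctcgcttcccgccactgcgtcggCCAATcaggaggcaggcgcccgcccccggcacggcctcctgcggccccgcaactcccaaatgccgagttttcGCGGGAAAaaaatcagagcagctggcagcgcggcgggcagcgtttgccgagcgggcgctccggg
HELLS: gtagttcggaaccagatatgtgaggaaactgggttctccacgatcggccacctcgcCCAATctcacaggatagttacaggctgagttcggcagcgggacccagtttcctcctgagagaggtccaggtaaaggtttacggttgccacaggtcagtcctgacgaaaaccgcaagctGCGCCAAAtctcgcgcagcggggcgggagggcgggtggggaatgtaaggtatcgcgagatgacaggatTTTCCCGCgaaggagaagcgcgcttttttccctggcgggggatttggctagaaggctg
TDG: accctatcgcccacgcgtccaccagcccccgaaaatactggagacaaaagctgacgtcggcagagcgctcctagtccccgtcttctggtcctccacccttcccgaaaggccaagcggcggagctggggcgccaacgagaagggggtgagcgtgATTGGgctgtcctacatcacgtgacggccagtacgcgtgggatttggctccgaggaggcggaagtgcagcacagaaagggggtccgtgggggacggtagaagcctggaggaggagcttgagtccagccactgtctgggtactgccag
Counted from the 5′ end, the E2F words began at base 249 in DNMT1, at base 237 in UHRF1 and at bases 175 and 243 in HELLS. The 4 promoters held 30, 36, 22 and 22 CpG dinucleotides in the order shown, and the median of all promoters was 14. A match describes the letters of the window and is no evidence of binding.

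The deposited values are CPM, counts of read pairs scaled to the same total in each library, from which whole read pairs were recovered. The libraries held 24088975 and 23163964 read pairs with PTBP1 siRNA 1 and 2, 22332245 with DNMT3B-L siRNA and 22511596 with control siRNA. Intervals given with levels and ratios are 95% intervals from these read pairs (exact Poisson for a level, Clopper-Pearson for a ratio) and cover counting error only. PTBP1 itself stood at 268 and 135 CPM with its 2 siRNAs, against 928 CPM with control siRNA (limma log2 fold change -2.28, adjusted p = 0.352). PTBP2, its neuronal paralog, which PTBP1 represses, rose to 60.9 and 70.9 CPM, against 8.26 CPM with control siRNA (limma log2 fold change 2.85, adjusted p = 0.0199), and stood at 6.45 CPM with DNMT3B-L siRNA. KRT8, a keratin gene of simple epithelia, had 1264 and 656 CPM with PTBP1 siRNA 1 and 2 and 1209 CPM with DNMT3B-L siRNA, against 1444 CPM with control siRNA. Of the 5 epithelial and prostate line markers tested, 4 stood at least 1.5-fold below control siRNA with PTBP1 siRNA 2 (KRT8 at 0.454, KRT18 at 0.653, EPCAM at 0.602 and CDH1 at 0.323 of it) and 0 with PTBP1 siRNA 1. With DNMT3B-L siRNA, CDH1 stood at 0.629 and EPCAM at 3.11 of control siRNA, EPCAM at 11.6 CPM against 3.73 CPM. The marker median, on log2(CPM + 1), was 0.00 and -0.61 with PTBP1 siRNA 1 and 2 and -0.26 with DNMT3B-L siRNA, and its part in the levels of the 10 genes was not tested. Of 11 markers of other cell types, 5 had values in every table, and their summed level was 28.98 and 24.6 CPM with PTBP1 siRNA 1 and 2, 19.8 CPM with DNMT3B-L siRNA and 18.5 CPM with control siRNA, most of it COL1A1. SYP had 4.75 CPM with PTBP1 siRNA 2 and at most 0.955 CPM in the other libraries. VWF and PDGFRB, each below 1 CPM, stood below control siRNA in every targeted library. In RNA from whole cultures, fewer cells of a kind and less RNA per cell cannot be told apart.

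None of the 10 genes passed the test in any comparison. The test was limma on log2(CPM + 1) over 14942 genes, with Benjamini-Hochberg adjusted p below 0.05. For PTBP1 siRNA against control siRNA 0 of 10 were called, beside 0.00669% of all genes (PTBP2 alone, 396 genes at an unadjusted p below 0.05). For DNMT3B-L siRNA against control siRNA 0 of 10 were called, beside 0.0% of all genes (457 at an unadjusted p below 0.05). For PTBP1 siRNA against DNMT3B-L siRNA 0 of 10 were called, beside 0.00669% of all genes (again PTBP2, 796 at an unadjusted p below 0.05). At an unadjusted p below 0.05 stood TDG and TET3 in the first comparison, TDG in the second and DNMT3B in the third. edgeR and DESeq2 on the recovered read pairs also called 0 of the 10. Only the 2 PTBP1 siRNA libraries give the fit a spread between libraries (1 residual degree of freedom), and the lone libraries are taken to vary as these do. PTBP1 itself stood at 0.289 and 0.146 of control siRNA with PTBP1 siRNA 1 and 2 and did not pass in limma. Not passing therefore does not show that a level was unchanged.

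**Figure D1:**
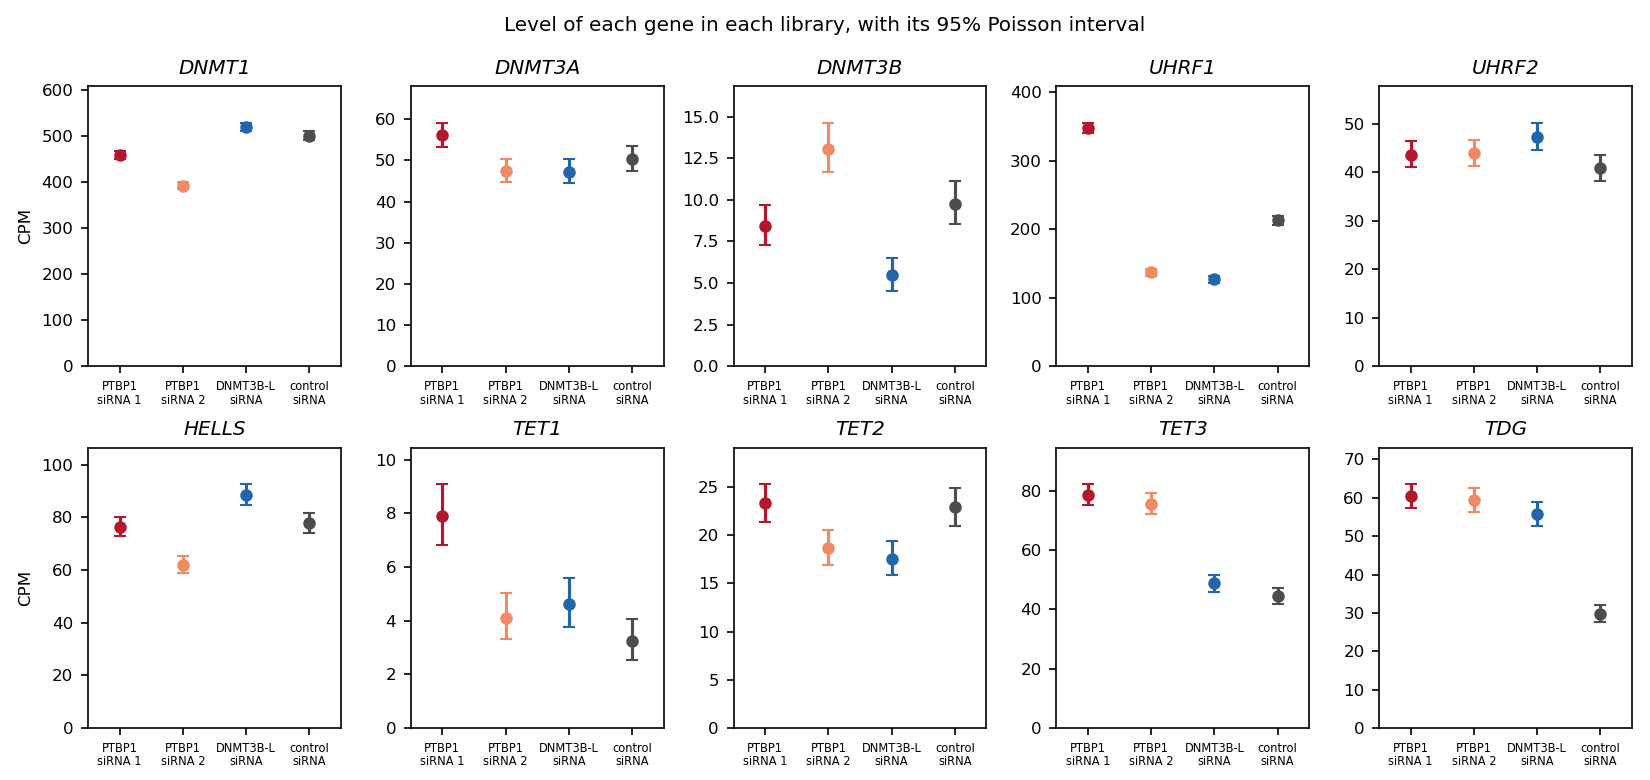
Level of each of the 10 genes in CPM (vertical axes, each from 0) in each library (horizontal axes); points are single libraries and bars their exact 95% Poisson intervals. TDG lies between 55.8 and 60.4 CPM in the 3 targeted libraries and at 29.7 CPM with control siRNA, and UHRF1 differs most between the 2 PTBP1 siRNAs (348 and 137 CPM).

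Ratios of CPM to the control library were then described without a test. The median absolute log2 difference from control siRNA, on log2(CPM + 1), was 0.17 and 0.34 for the 10 genes with PTBP1 siRNA 1 and 2 and 0.29 with DNMT3B-L siRNA, beside 0.23, 0.23 and 0.24 over all genes tested. With PTBP1 siRNA 1, UHRF1, TET1, TET3 and TDG stood at least 1.5-fold higher than control siRNA (4 of 10, beside 7.29% of all genes) and 0 of 10 at least 1.5-fold lower (beside 11.1%). With PTBP1 siRNA 2, TET3 and TDG were at least 1.5-fold higher (2 of 10, beside 7.13%) and UHRF1 was lower (1 of 10, beside 12.3%). With DNMT3B-L siRNA, TDG was at least 1.5-fold higher (1 of 10, beside 7.49%), and DNMT3B and UHRF1 were lower (2 of 10, beside 11.5%). In both PTBP1 siRNA libraries together, TET3 and TDG were higher (2 of 10, beside 2.26%) and 0 of 10 lower (beside 3.65%). In all 3 targeted libraries TDG alone was higher (1 of 10, beside 1.08%) and 0 of 10 lower (beside 1.57%). Control siRNA was the lowest of the 4 libraries for UHRF2, TET1, TET3 and TDG (4 of 10, beside 21.98% of all genes) and the highest for 0 of 10 (beside 19.6%).

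**Figure D2:**
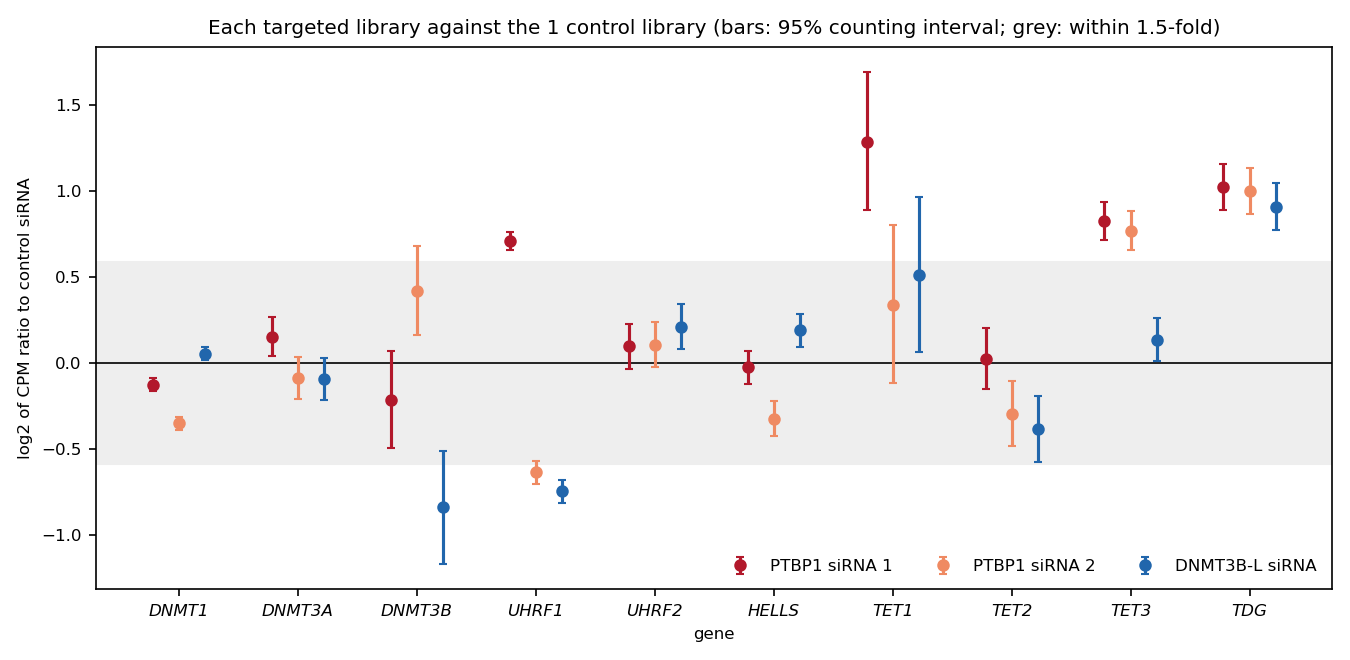
Log2 of the CPM ratio of each targeted library to control siRNA (vertical axis) for each gene (horizontal axis); bars are 95% counting intervals and the grey band covers ratios within 1.5-fold. All 3 TDG points and the 2 PTBP1 siRNA points of TET3 lie above the band, UHRF1 lies above it with PTBP1 siRNA 1 and below it in the other 2 libraries, and DNMT3B lies below it only with DNMT3B-L siRNA.

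TDG, the thymine DNA glycosylase that removes oxidized methylcytosine and mispaired thymine, stood above control siRNA by a similar ratio in all 3 targeted libraries. It stood at 60.4 CPM (57.3 to 63.6) with PTBP1 siRNA 1, 59.3 CPM (56.2 to 62.5) with PTBP1 siRNA 2 and 55.8 CPM (52.7 to 59.0) with DNMT3B-L siRNA, against 29.7 CPM (27.5 to 32.1) with control siRNA. The 3 targeted libraries lay close together and far above the counting interval of control siRNA. The ratios to control siRNA were 2.03 (1.85 to 2.23), 2.00 (1.82 to 2.192) and 1.88 (1.71 to 2.07). Of 11075 genes with an average of at least 5 CPM, 8 including TDG (0.0722%) had all 3 ratios at or above 1.88. In limma the log2 fold change was 0.99 (SE 0.31, unadjusted p = 0.00814, adjusted p = 0.9998) for PTBP1 siRNA and 0.89 (SE 0.36, unadjusted p = 0.0301, adjusted p = 0.998) for DNMT3B-L siRNA, for which DESeq2 gave an unadjusted p of 0.0536 and an adjusted p of 1. Since the 3 ratios share 1 control library, a low value in that library and a higher level in the 3 others cannot be told apart. TDGP1, a pseudogene of TDG, had 7 and 10 read pairs with PTBP1 siRNA 1 and 2, 5 with DNMT3B-L siRNA and 4 with control siRNA, and how the counting placed reads that fit both was not tested.

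TET3, the dioxygenase with the highest level of its family here, stood at least 1.5-fold above control siRNA with both PTBP1 siRNAs and not with DNMT3B-L siRNA. It had 78.7 CPM (75.2 to 82.3) with PTBP1 siRNA 1, 75.6 CPM (72.1 to 79.2) with PTBP1 siRNA 2 and 48.8 CPM (45.9 to 51.8) with DNMT3B-L siRNA, against 44.4 CPM (41.7 to 47.3) with control siRNA. The 2 PTBP1 siRNA libraries overlapped each other in their intervals and neither of the other libraries. The ratio to control siRNA was 1.77 (1.64 to 1.91) and 1.70 (1.57 to 1.84) with PTBP1 siRNA 1 and 2, and 1.10 (1.01 to 1.20) with DNMT3B-L siRNA. Both PTBP1 ratios were at or above 1.70 in 40 of the 11075 genes (0.361%). In limma the log2 fold change was 0.78 (SE 0.31, unadjusted p = 0.0267, adjusted p = 0.9998) for PTBP1 siRNA against control siRNA and 0.65 (SE 0.31, unadjusted p = 0.0579, adjusted p = 0.935) for PTBP1 siRNA against DNMT3B-L siRNA.

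TET1, which carries a CXXC domain that binds unmethylated CpG, was the lowest of the 10 genes. It had 7.89 CPM (6.81 to 9.09, 190 read pairs) with PTBP1 siRNA 1, 4.10 CPM (3.32 to 5.01, 95 read pairs) with PTBP1 siRNA 2 and 4.61 CPM (3.77 to 5.59, 103 read pairs) with DNMT3B-L siRNA, against 3.24 CPM (2.54 to 4.08, 73 read pairs) with control siRNA. Only the PTBP1 siRNA 1 library had an interval that overlapped none of the other intervals. It stood at 2.43 times control siRNA (1.85 to 3.23), and at 1.92 times PTBP1 siRNA 2 (1.496 to 2.49). The ratio was 1.27 (0.922 to 1.74) with PTBP1 siRNA 2 and 1.42 (1.04 to 1.95) with DNMT3B-L siRNA. The fitted log2 fold change for PTBP1 siRNA was 0.67 (SE 0.40, adjusted p = 0.9998 in limma).

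TET2, the family member without a CXXC domain of its own, had 23.3 CPM with PTBP1 siRNA 1, 18.7 CPM with PTBP1 siRNA 2 and 17.6 CPM with DNMT3B-L siRNA, against 22.9 CPM with control siRNA. It was thus lowest in the libraries of PTBP1 siRNA 2 and DNMT3B-L siRNA, at 0.815 (0.716 to 0.928) and 0.767 (0.671 to 0.877) of control siRNA. The 3 TET genes did not share 1 order of the libraries.

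UHRF1, the ubiquitin ligase that brings DNMT1 to replicated DNA, differed more between the 2 PTBP1 siRNAs than any other of the 10 genes. It stood at 348 CPM (340.5 to 355) with PTBP1 siRNA 1, 137 CPM (132 to 142) with PTBP1 siRNA 2 and 127 CPM (122 to 132) with DNMT3B-L siRNA, against 213 CPM (207 to 219) with control siRNA. The ratio to control siRNA was therefore above 1 for one PTBP1 siRNA, at 1.64 (1.58 to 1.70), and below 1 for the other, at 0.643 (0.615 to 0.673). With DNMT3B-L siRNA it was 0.597 (0.569 to 0.625). PTBP1 siRNA 1 gave 2.54 times (2.44 to 2.65) the level of PTBP1 siRNA 2. This gap, 1.35 on the log2 scale, was exceeded by 1.49% of the 11075 genes, whose median gap was 0.27. The limma estimate for PTBP1 siRNA against control siRNA was 0.04 (SE 0.44, adjusted p = 0.9998) and that for DNMT3B-L siRNA was -0.74 (SE 0.51, adjusted p = 0.998).

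UHRF2, the paralog of UHRF1 that does not replace it in maintenance methylation, varied least of the 10. It had 43.7 and 44.0 CPM with PTBP1 siRNA 1 and 2 and 47.3 CPM with DNMT3B-L siRNA, against 40.9 CPM with control siRNA. The ratios were 1.07 (0.977 to 1.17), 1.08 (0.983 to 1.18) and 1.16 (1.06 to 1.27), so that of the 3 only the DNMT3B-L siRNA interval left out 1. An antisense gene, AL133480.1, shares 1011 exon bases with UHRF2 in GENCODE v29 and was near 0.04 CPM where it had a value.

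DNMT1, the maintenance methyltransferase, had 458 CPM (449 to 466) with PTBP1 siRNA 1, 392 CPM (384 to 400.1) with PTBP1 siRNA 2 and 519 CPM (510 to 529) with DNMT3B-L siRNA, against 500.1 CPM (491 to 510) with control siRNA. Both PTBP1 siRNA libraries lay below control siRNA, at 0.915 (0.892 to 0.940) and 0.784 (0.762 to 0.806), and the DNMT3B-L siRNA library just above it, at 1.04 (1.01 to 1.07). The limma log2 fold change for PTBP1 siRNA was -0.24 (SE 0.29, adjusted p = 0.9998), within the spread of the fit. DNMT1 shares 83 exon bases with S1PR2 on the same strand.

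HELLS, also called LSH, followed the order of DNMT1. It had 76.4 CPM (72.9 to 80.0) with PTBP1 siRNA 1, 62.1 CPM (58.9 to 65.4) with PTBP1 siRNA 2 and 88.7 CPM (84.8 to 92.7) with DNMT3B-L siRNA, against 77.8 CPM (74.2 to 81.5) with control siRNA. PTBP1 siRNA 2 was the lowest library and DNMT3B-L siRNA the highest for both genes, whereas for UHRF1 DNMT3B-L siRNA was the lowest. Promoters of DNMT1, HELLS and UHRF1 each held E2F words, but not the same set, and their part in these levels was not tested. The HELLS ratios to control siRNA were 0.982 (0.919 to 1.05) with PTBP1 siRNA 1, 0.798 (0.744 to 0.856) with PTBP1 siRNA 2 and 1.14 (1.07 to 1.22) with DNMT3B-L siRNA. Of its 10148 merged exon bases, HELLS shares 3763 with AL138759.1 and 55 with TBC1D12, both on the same strand in GENCODE v29. AL138759.1 had a value only with DNMT3B-L siRNA, 0.358 CPM. How the counting placed reads in the shared bases was not tested.

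DNMT3B, a de novo methyltransferase and the gene from which the name of the DNMT3B-L target derives, had the second lowest level in CPM of the 10. It stood at 8.43 CPM (7.31 to 9.67, 203 read pairs) with PTBP1 siRNA 1, 13.1 CPM (11.7 to 14.6, 303 read pairs) with PTBP1 siRNA 2 and 5.46 CPM (4.54 to 6.52, 122 read pairs) with DNMT3B-L siRNA, against 9.77 CPM (8.52 to 11.2, 220 read pairs) with control siRNA. DNMT3B-L siRNA gave the lowest library and PTBP1 siRNA 2 the highest, with control siRNA between them. The gene stood at 1.54 times DNMT3B-L siRNA (1.23 to 1.95) with PTBP1 siRNA 1 and at 2.39 times (1.93 to 2.98) with PTBP1 siRNA 2. In limma the log2 fold change of DNMT3B-L siRNA against control siRNA was -0.74 (SE 0.43, unadjusted p = 0.108, adjusted p = 0.998), at a ratio of 0.559 (0.444 to 0.701). That of PTBP1 siRNA against DNMT3B-L siRNA was 0.83 (SE 0.37, unadjusted p = 0.0423, adjusted p = 0.919 in limma). Under the alternatives the unadjusted p of the second ran between 0.0351 with edgeR and 0.0991 in limma with no filter on low values, with adjusted p values of 0.885 and above. Against control siRNA the 2 PTBP1 siRNAs lay on opposite sides, at 0.862 (0.709 to 1.05) and 1.34 (1.12 to 1.6) of it.

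These values sum over the isoforms of DNMT3B and cannot separate them. GENCODE v29 on GRCh38 lists 6 transcripts of the gene (chromosome 20, 32762385 to 32809356, plus strand), all coding, for proteins of 694 to 853 residues. Relative to the longest, DNMT3B-202 with 23 exons, exon 10 (60 nt, 32793536 to 32793595) is missing from 5 transcripts, exons 21 (70 nt) and 22 (119 nt) from 3, exon 5 (126 nt) from 2 and exon 4 (102 nt) from 1. The RefSeq promoter of DNMT3B lies at the start of DNMT3B-201 (base 32779852), downstream of the starts of the other 5, and holds 3 CpG dinucleotides, the fewest of the 21 promoters.

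The genes most like DNMT3B in their 3 differences from control siRNA were NANOS1, B3GNT9 and AIFM3, within 0.05, 0.08 and 0.08 on log2(CPM + 1) in each library. NANOS1 had 10.9 and 16.8 CPM with PTBP1 siRNA 1 and 2 and 7.61 CPM with DNMT3B-L siRNA, against 12.8 CPM with control siRNA. Within 0.2 of DNMT3B in all 3 differences lay 28 of 11074 genes. The likeness is over 3 libraries that share 1 control library.

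DNMT3A, the other de novo methyltransferase, had 56.1 CPM (53.1 to 59.2) with PTBP1 siRNA 1, 47.5 CPM (44.7 to 50.4) with PTBP1 siRNA 2 and 47.3 CPM (44.5 to 50.2) with DNMT3B-L siRNA, against 50.4 CPM (47.5 to 53.4) with control siRNA. Its libraries lay close together, and the ratios of 0.942 (0.866 to 1.02) with PTBP1 siRNA 2 and 0.938 (0.862 to 1.02) with DNMT3B-L siRNA had intervals that held 1. With PTBP1 siRNA 1 the ratio was 1.11 (1.03 to 1.21).

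Levels of different genes were compared per kb of merged exons, with exon lengths from GENCODE v29 on GRCh38, a later annotation than the hg19 and GRCh37 builds named in the submitters' processing notes. With control siRNA the order ran from DNMT1 (51.1 CPM per kb) and UHRF1 (41.3) through HELLS (7.67), TDG (6.06), DNMT3A (4.20), UHRF2 (4.12), TET3 (3.62), DNMT3B (2.11) and TET2 (1.39) to TET1 (0.349). DNMT3A and UHRF2 were neighbours whose order turned round with PTBP1 siRNA 2 and DNMT3B-L siRNA. TET3, below both with control siRNA, stood above both with PTBP1 siRNA 1 and 2, at 6.41 and 6.16 CPM per kb. It also stood just above HELLS with PTBP1 siRNA 2 and just above DNMT3A with DNMT3B-L siRNA. With PTBP1 siRNA 1, UHRF1 at 67.6 CPM per kb stood above DNMT1 at 46.7 CPM per kb, the only library with that order. TDG stood above HELLS in the 3 targeted libraries, at 11.4 to 12.3 CPM per kb, and below it with control siRNA.

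Within families, DNMT1 held most of the summed level per kb of the methyltransferases and TET3 most of that of the TET genes in every library. The DNMT3B share was small in each library but ranged from 2.03% to 6.04%. DNMT1 made up 87.8% and 85.5% of the methyltransferase sum with PTBP1 siRNA 1 and 2, 91.2% with DNMT3B-L siRNA and 89.0% with control siRNA. DNMT3B made up 3.42% and 6.04% with PTBP1 siRNA 1 and 2, 2.03% with DNMT3B-L siRNA and 3.68% with control siRNA. The TET sum was 8.67 and 7.73 CPM per kb with PTBP1 siRNA 1 and 2, 5.54 with DNMT3B-L siRNA and 5.36 with control siRNA. TET3 held 73.9% and 79.6% of it with PTBP1 siRNA 1 and 2, 71.8% with DNMT3B-L siRNA and 67.6% with control siRNA. These shares have no replicate in 2 of the 3 conditions.

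**Figure D3:**
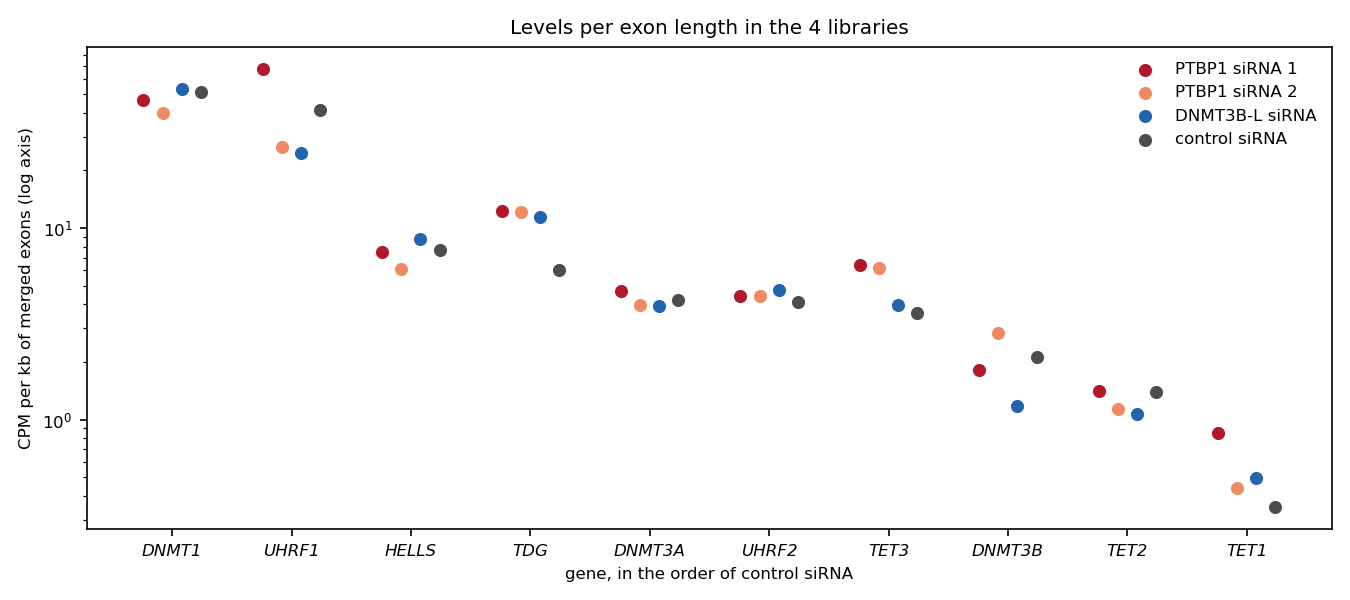
CPM per kb of merged exons (vertical axis, log scale) for the 10 genes in the order of control siRNA (horizontal axis), with 1 point per library. DNMT1 and UHRF1 lie between 24.7 and 67.6 CPM per kb in every library and TET1 below 1, and TDG lies above HELLS in each library except control siRNA.

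Genes around this machinery were read from lists of known partners and pathways, each as counts beside the shares of all genes given above. Apart from PTBP2, 0 list genes passed the limma threshold in any comparison. Of 29 partners of the methyltransferases 27 were tested, and their median difference from control siRNA was 0.16 and 0.07 with PTBP1 siRNA 1 and 2 and 0.15 with DNMT3B-L siRNA, on log2(CPM + 1). At 1.5-fold, 1, 0 and 1 of the 27 were higher and 0, 1 and 0 lower in the same order of libraries. TRIM28, a corepressor that recruits the histone methyltransferase SETDB1, had 453 and 518 CPM with PTBP1 siRNA 1 and 2 and 619 CPM with DNMT3B-L siRNA, against 369 CPM with control siRNA. CDCA7, which recruits HELLS to nucleosomes, had 76.4, 55.6 and 55.5 CPM in the same libraries, against 49.2 CPM with control siRNA.

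The list of demethylation and base excision repair, which holds TDG, had 19 of 21 genes tested. Its median difference was 0.24 and 0.08 with PTBP1 siRNA 1 and 2 and 0.11 with DNMT3B-L siRNA, with 2, 3 and 1 genes higher and 1, 1 and 2 lower at 1.5-fold. GADD45A, a stress-induced gene linked to DNA repair, had 41.5 and 36.7 CPM with PTBP1 siRNA 1 and 2 and 33.1 CPM with DNMT3B-L siRNA, against 25.1 CPM with control siRNA. CXXC5, a zinc finger protein that binds unmethylated CpG, had 56.5 and 40.0 CPM with PTBP1 siRNA 1 and 2 and 34.5 CPM with DNMT3B-L siRNA, against 58.2 CPM with control siRNA.

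DNMT1, UHRF1 and HELLS are known to be expressed most in cycling cells, so genes of the cell cycle are given beside them. The 16 S phase genes had a median difference of 0.23 and -0.09 with PTBP1 siRNA 1 and 2 and 0.36 with DNMT3B-L siRNA. The 8 genes of G2 and mitosis had -0.11 and 0.09 with PTBP1 siRNA 1 and 2 and 0.40 with DNMT3B-L siRNA. With PTBP1 siRNA 1, where the S phase median was above 0, DNMT1 stood at 0.915, UHRF1 at 1.64 and HELLS at 0.982 of control siRNA. With PTBP1 siRNA 2, where it was below 0, they stood at 0.784, 0.643 and 0.798 in the same order. With DNMT3B-L siRNA, where it was highest, they stood at 1.04, 0.597 and 1.14. RRM2, the ribonucleotide reductase subunit of S phase, had 127 and 137 CPM with PTBP1 siRNA 1 and 2 and 281 CPM with DNMT3B-L siRNA, against 126 CPM with control siRNA. CDT1, a replication licensing factor, had 105 and 77.0 CPM with PTBP1 siRNA 1 and 2 and 104 CPM with DNMT3B-L siRNA, against 65.9 CPM with control siRNA. The part of cell cycle differences in the levels of the 10 genes was not tested.

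**Figure D4:**
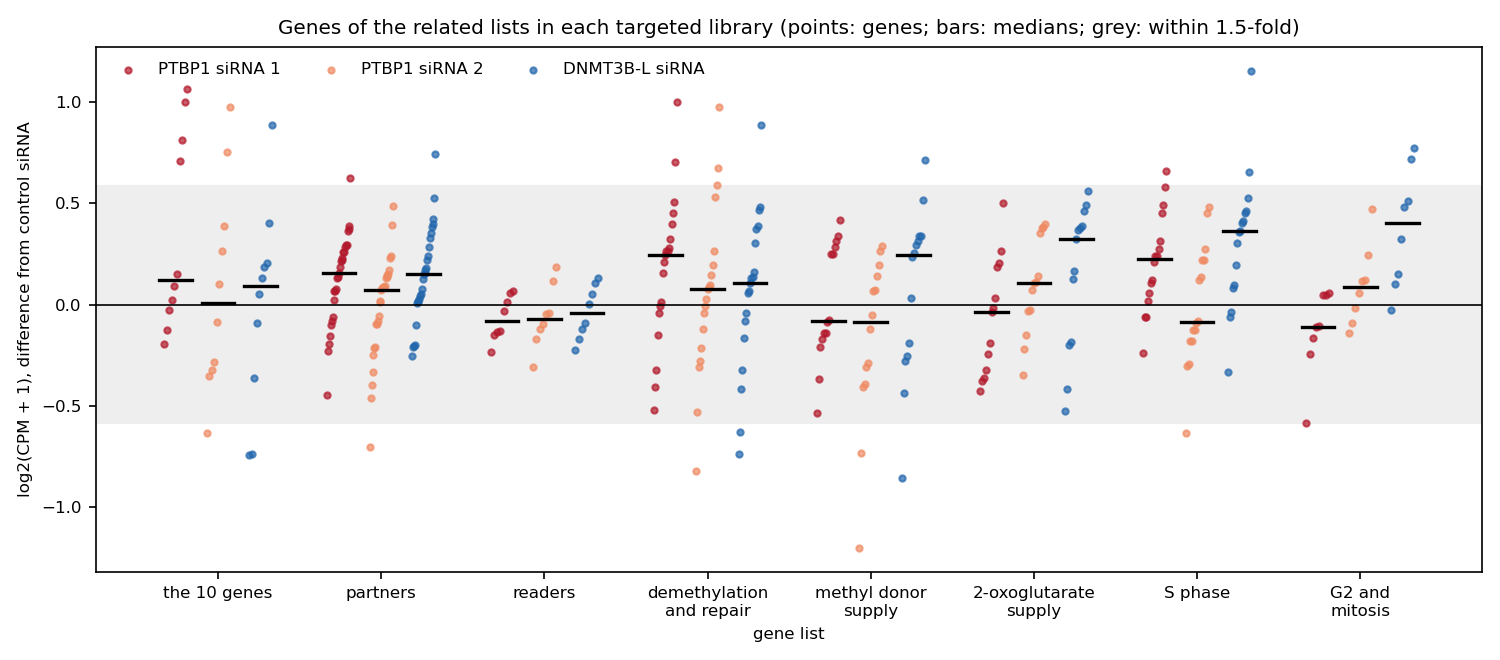
Difference of log2(CPM + 1) from control siRNA (vertical axis) for the tested genes of 8 lists (horizontal axis; the cell type marker, germline and target lists are not drawn) in the 3 targeted libraries; points are genes, black bars medians, and the grey band covers 1.5-fold. The medians drawn lie between -0.11 and 0.40, and the highest of them are those of the G2 and mitosis and the S phase lists with DNMT3B-L siRNA.

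Of 16 germline genes that promoter methylation keeps silent in most tissues, 2 had values in every table and 0 passed the filter on low values. Their summed level was 0.457 and 0.561 CPM with PTBP1 siRNA 1 and 2 and 0.537 CPM with DNMT3B-L siRNA, against 0.578 CPM with control siRNA. In the same order of targeted libraries, SYCP3 stood at 1.87, 2.33 and 2.22 times control siRNA and DDX4 at 0.12, 0.12 and 0.13. Both genes were below 1 CPM in every library, so the sum does not show whether germline genes kept their level.

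Because siRNAs can also lower transcripts that match only their seed, 3′ UTRs were searched for 7-base words held by at least 200 genes. Values in each library were taken against the mean of the other 3. The word kept had the most negative t statistic in a regression that allowed for 3′ UTR length and its share of G and C. With DNMT3B-L siRNA this word was AACAACA, held by 1442 of 10499 genes, whose median was -0.06, against 0.06 in genes without it. With PTBP1 siRNA 1 it was CTGCACA (1638 genes, median -0.14, against 0.03 without) and with PTBP1 siRNA 2 AAGATCA (1422 genes, median -0.16, against 0.03 without). The same search in the control siRNA library gave TACCTCA (1341 genes, median -0.02, against -0.01 without). The words were found in these libraries, and the sequences of the siRNAs were not used here. In their longest 3′ UTRs, UHRF1, TET1 and TET3 held AACAACA once each, DNMT3A and TET2 held AAGATCA once each, and 0 of the 10 genes held CTGCACA. The 3 sites of AACAACA, in capitals, are shown with their flanks from GENCODE v29 on GRCh38, at chr19:4961059-4961079, chr10:68693233-68693253 and chr2:74103347-74103367, all on the plus strand.
UHRF1: tcgacaaAACAACAcaagatt
TET1: ttacccaAACAACAtgtttcg
TET3: ccagtgtAACAACAgttaatg
On the measure that gave the word, log2(CPM + 1) with DNMT3B-L siRNA minus the mean of the other 3 libraries, UHRF1 stood at -0.77, TET1 at -0.04 and TET3 at -0.39. Against control siRNA alone they stood at 0.597, 1.42 and 1.10 times its level in the same order. DNMT3B holds AACAACA 0 times in its 3′ UTR and 3 times elsewhere in DNMT3B-204. With PTBP1 siRNA 2, the holders of AAGATCA stood at -0.10 (DNMT3A) and -0.17 (TET2) on that measure, and at 0.942 and 0.815 of control siRNA. Whether any of these sites took part was not tested.

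For PTBP1 siRNA against DNMT3B-L siRNA, a comparison without the control library, the largest estimates among the 10 genes were those of DNMT3B (0.83), UHRF1 (0.78, SE 0.44, adjusted p = 0.942 in limma) and TET3 (0.65). UHRF1 stood at 2.74 times DNMT3B-L siRNA (2.63 to 2.86) with PTBP1 siRNA 1 and at 1.08 times (1.03 to 1.14) with PTBP1 siRNA 2. TDG, which stood above control siRNA in all 3 targeted libraries, had an estimate of 0.10 here (SE 0.31, adjusted p = 0.9995 in limma). HELLS and DNMT1 had estimates of -0.36 (SE 0.32) and -0.29 (SE 0.29), the lowest of the 10.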

How the data were processed

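RNA of DU145 cells was sequenced as 100-bp read pairs. As tools, the submitters' notes list HISAT2 2.1.0, HTSeq 0.6.1 and bcl2fastq 2.19.1, and as builds GRCh37 and hg19. CPM values were deposited in 1 table for each library. In each library 100% of CPM values were whole multiples of the value of 1 read pair (tolerance 0.001), apart from 176 to 223 values of 0.5 read pair, which stand where 0 would. Genes missing from any table were left out (3111 genes, at most 4.702 CPM). Every gene that reached a CPM of 1 in any library was tested with limma 3.58.1 (trend) in R 4.3.3 on log2(CPM + 1), all 4 libraries in 1 fit by condition, with 1 residual degree of freedom and 11.5 from the prior, and two-sided p-values adjusted over all genes. Fold changes on this scale understate the change of low genes. edgeR 4.0.16 and DESeq2 1.42.0 on recovered read pairs were alternatives. On simulated data with known answers, limma, edgeR and DESeq2 were scored only for PTBP1 siRNA against control siRNA. Lengths and transcripts came from GENCODE v29, promoters from RefSeq.

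The 10 genes and the lists were chosen with earlier results of these data known. Named from the other lists were genes past the threshold and, where the average CPM was 5 or more, the 2 per list with the largest single log2 difference among those moving one way in all 3 targeted libraries. From the list of targets the rule gave RALY, which had 178 and 152 CPM with PTBP1 siRNA 1 and 2, 158 CPM with DNMT3B-L siRNA and 151 CPM with control siRNA. NSD2 was matched by gene ID. Some marker genes are not reported here.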

Additional observations from a re-analysis of the deposited data

How the results depend on the processing

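Every tested difference of the 10 genes kept its direction and its side of the threshold under the alternatives run (237 values, over pseudocounts of 0.1 and 5, TMM factors, quantile normalization, edgeR, DESeq2, genes kept without a filter, and genes averaging 5 CPM or more, which left out TET1), and the lowest adjusted p of any of them was 0.885. Over all genes, in the order PTBP1 siRNA against control siRNA, DNMT3B-L siRNA against control siRNA and PTBP1 siRNA against DNMT3B-L siRNA, 1, 0 and 1 genes passed with limma, 0, 0 and 0 with no filter and with quantile normalization, 0, 0 and 1 with edgeR, and 2, 1 and 4 with DESeq2, and what caused these differences was not tested. That the 10 genes kept their side of the threshold says little, since PTBP1 itself did not pass it in limma. Without 1 of the 2 PTBP1 siRNA libraries no residual degree of freedom is left, so these are values with no test. They lay on opposite sides of control siRNA for 4 of the 10 genes. For UHRF1 the log2 difference was -0.63 without replicate 1 and 0.71 without replicate 2, and for DNMT3B 0.39 and -0.19. For TDG it was 0.97 and 1.00 and for TET3 0.75 and 0.81.

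Counts past a fold threshold depended on it. At a fold of 2 instead of 1.5, 2 genes (TET1 and TDG) were higher with PTBP1 siRNA 1, and 0 were higher or lower with PTBP1 siRNA 2 or DNMT3B-L siRNA, 0 higher in both PTBP1 siRNA libraries and 0 in all 3. At a lower threshold, a ratio of 5 to 4, 4 were higher and 0 lower with PTBP1 siRNA 1, and 4 higher and 3 lower with PTBP1 siRNA 2. With DNMT3B-L siRNA 2 were higher and 3 lower (DNMT3B, UHRF1 and TET2). In both PTBP1 siRNA libraries 3 were higher (TET1, TET3 and TDG) and 0 lower. In all 3 targeted libraries 2 were higher (TET1 and TDG) and 0 lower. Shares of all genes were taken only at 1.5-fold, so the counts at these other thresholds have no such share beside them. TMM factors and a pseudocount of 1 left every count as it was. Counting error limits TET1 and DNMT3B, with 73 to 303 read pairs. No paired analysis was possible because control siRNA and DNMT3B-L siRNA have 1 library each and nothing in the labels pairs the libraries.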

Other observations

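Genes that supply the substrates of the methyltransferases and TET enzymes were read in the same way, and 0 of them passed the limma threshold in any comparison. The methyl donor list (14 of 15 genes tested) had a median difference from control siRNA of -0.08 and -0.09 with PTBP1 siRNA 1 and 2 and 0.25 with DNMT3B-L siRNA, on log2(CPM + 1). At 1.5-fold, 0, 0 and 1 of the 14 were higher and 1, 2 and 1 lower in the same order of libraries. MTHFD2, a mitochondrial enzyme of folate metabolism, had 143 and 138 CPM with PTBP1 siRNA 1 and 2 and 162 CPM with DNMT3B-L siRNA, against 113 CPM with control siRNA. AHCYL1, a relative of the hydrolase that clears S-adenosylhomocysteine, had 156, 108 and 149 CPM in the same libraries, against 181 CPM with control siRNA. The list of 2-oxoglutarate supply and its competitors (13 of 13 tested) had medians of -0.03, 0.11 and 0.33, with 0 genes past 1.5-fold in any library. IDH3B, a subunit of the NAD-dependent isocitrate dehydrogenase, had 160 and 146 CPM with PTBP1 siRNA 1 and 2 and 155 CPM with DNMT3B-L siRNA, against 112 CPM with control siRNA. IDH1, the cytosolic enzyme that makes 2-oxoglutarate, had 122, 111 and 137 CPM, against 106 CPM with control siRNA.

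Of the 8 readers of methylated DNA, 0 stood past 1.5-fold in any library, as did 0 of the 13 genes of the 2-oxoglutarate list. Of all genes, 7.13% to 7.49% were at least 1.5-fold higher in a library and 11.1% to 12.3% lower. Lists of 8 and 13 genes are small, and whether their counts of 0 differ from these shares was not tested. MBD2, which links methylated DNA to the NuRD complex, had 64.4 and 63.7 CPM with PTBP1 siRNA 1 and 2 and 56.3 CPM with DNMT3B-L siRNA, against 65.8 CPM with control siRNA. Among the cell cycle genes, CCNB1, the mitotic cyclin, had 244 and 246 CPM with PTBP1 siRNA 1 and 2 and 388 CPM with DNMT3B-L siRNA, against 236 CPM with control siRNA. MKI67, the proliferation antigen, had 297, 405 and 438 CPM in these libraries, against 446 CPM with control siRNA.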
